A study of Mus musculus with 14 samples.

Results

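The genes described here are 10 components of the muscle atrophy machinery: the secreted inhibitor of muscle growth Mstn (myostatin), the transcription factors Foxo1 and Foxo3, the ubiquitin ligase genes Fbxo32 (atrogin-1), Trim63 (MuRF1) and Fbxo30 (MUSA1), the lysosomal protease gene Ctsl (cathepsin L), the mitophagy receptor gene Bnip3, and the metallothionein genes Mt1 and Mt2. They were chosen by symbol, and every array probe carrying one of these symbols was taken. This gave 16 of the 55681 probes on the array. Of the 10 genes, 9 had a probe that stood well above background throughout at least 1 group and were tested, among 14170 genes tested in all.

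RNA came from whole skeletal muscles of Ts1Cje mice, which carry an extra copy of a segment of mouse chromosome 16 and serve as a model of Down syndrome, and of their WT littermates without that copy, all labelled as C57BL/6. The extensor digitorum longus (EDL), a fast-twitch muscle, gave 3 arrays per genotype, and the soleus, a muscle rich in slow fibres, gave 4 arrays per genotype. No group had a treatment, and every cell of a Ts1Cje mouse carries the extra segment. The age and sex of the mice are not given in the sources used here. None of the 10 genes lies on chromosome 16. The labels do not say whether an EDL and a soleus came from the same mouse, nor that every array is a separate mouse, so p-values measure the spread between these samples.

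In muscle that is losing mass, FoxO transcription factors that are free of inhibition by the insulin, IGF1 and AKT pathway enter the nucleus and raise transcription of ubiquitin ligases and autophagy genes. Atrogin-1 and MuRF1 mark muscle proteins for the proteasome, cathepsin L degrades proteins in lysosomes, and BNIP3 recruits autophagosomes to mitochondria. Myostatin signals through activin receptors and SMAD proteins and limits muscle growth, and MUSA1 is a ligase known to be restrained by BMP signalling. Metallothioneins bind zinc and copper, are induced by metals and by glucocorticoids, and rise with the ligases in many forms of muscle wasting.

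Levels below are log2 of the background-subtracted intensity relative to the 75th percentile of the same array, so 0 is the 75th percentile and a difference of 1 is 2-fold. A level of one gene is not comparable with that of another, because probes differ in how well they bind. Per array, 41.3% to 52.9% of probes stood well above background and none was saturated, and arrays of a group correlated at 0.979 to 0.988 over the genes tested. All 6 EDL arrays and soleus Ts1Cje replicate 1 were on slide 1, and the other 7 soleus arrays were on slide 2, so muscle and slide can be told apart only through that single soleus array. The labels of the muscles fitted their markers. The summed level of the fast fibre genes was 14.3 to 14.8 on the EDL arrays against 13.1 to 13.6 on the soleus arrays, and that of the slow fibre genes was 6.41 to 8.98 against 12.6 to 13.3.

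The first question was whether these genes differed between Ts1Cje and WT mice in either muscle. None of the 9 tested genes was called for genotype in the EDL, in the soleus, in the mean of both muscles or in the difference between muscles (limma, Benjamini-Hochberg adjusted p threshold 0.05), and 0 of 9 had an unadjusted p under 0.05 in any of the 4 comparisons. For no gene were the Ts1Cje and WT arrays of a muscle separate. Among all genes tested, 0.00706% were called in the EDL, 0.247% in the soleus, 0.289% in the mean and 0% in the difference. With the replicate number as a block, which may not pair the soleus samples, the 35 genes behind the soleus share were 7. They were 4 with the soleus groups fitted alone and 1 within slide 2. They were 10 and 11 without the high arrays described further on, soleus WT replicate 1 and soleus Ts1Cje replicate 2, 18 and 12 without Ts1Cje replicates 1 and 3, and 16 and 17 without WT replicates 3 and 4. The genotype groups were separate for 5.6% of all genes in the EDL and for 8.39% in the soleus. The median change of the 9 genes was 0.09 in the EDL, against 0.00 over all genes, and 0.06 in the soleus, against 0.07.

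Mstn, the ligand, was steady in the EDL and held 1 extreme value in the soleus. Its level was 1.5, 1.71 and 1.68 on the EDL WT arrays and 1.80, 1.68 and 2.25 on the EDL Ts1Cje arrays. In the soleus it was -2.79, -2.38, -2.19 and -3.72 in WT and 6.66, -2.76, -3.04 and -3.41 in Ts1Cje. Soleus Ts1Cje replicate 1 stood more than 4 log2 units above every other array, while the other 3 Ts1Cje arrays lay within the WT range. With that array the fitted soleus difference was 2.13 ± 1.69 (SE, 95% interval -1.52 to 5.79, adjusted p = 0.563). Without that spot, whose local background the scanner software had flagged, it was -0.30 ± 0.31 (95% interval -0.96 to 0.36, adjusted p = 0.668). The EDL difference was 0.28 ± 1.95, or 0.28 ± 0.33 without that soleus spot, since all groups share 1 estimate of the spread.

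**Figure D1:**
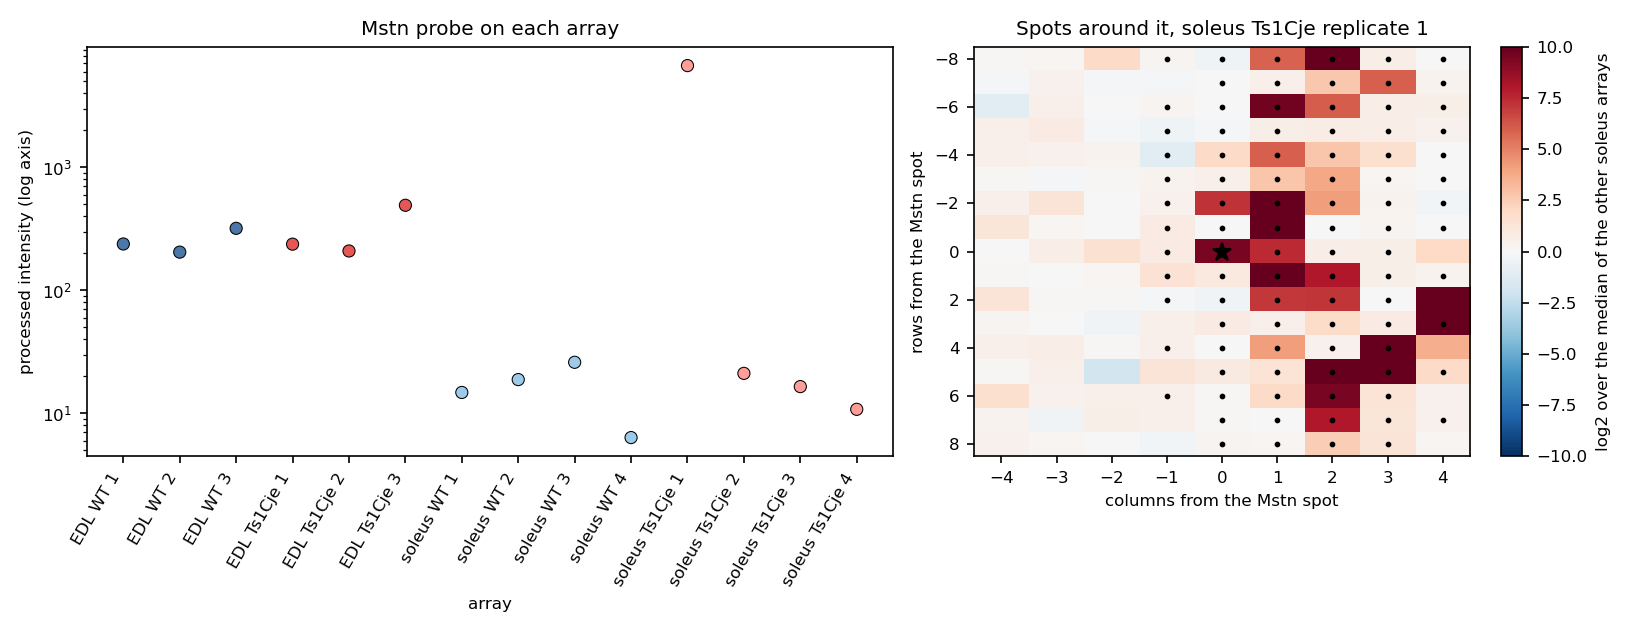
Left, the processed intensity of the Mstn spot on each of the 14 arrays (log axis, 1 point per array). Right, the log2 excess of the spots around it on soleus Ts1Cje replicate 1 over the median of the other soleus arrays, by rows and columns from the Mstn spot (star), with dots at spots of flagged local background. The soleus Ts1Cje replicate 1 point is at 6723, against 6.36 to 26 on the other soleus arrays and 205 to 492 on the EDL arrays.

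Spots around Mstn on soleus Ts1Cje replicate 1 were high as well. The processed intensity of Mstn there was 6723, against 6.36 to 26 on the other 7 soleus arrays. Of the 24 spots within 2 rows and 2 columns, 11 were over 2-fold and 9 over 16-fold above the median of the other soleus arrays. On the other 13 arrays these counts were at most 1 and 0. The local background was flagged at 19 of the 24 spots on that array and at no more than 1 on any other. The genes whose deviations followed Mstn most closely over the 14 arrays were Ndrg3 (r = 0.990), Arhgef7 (r = 0.984) and 9530062K07Rik (r = 0.982), with probes 6, 3 and 2 rows away on the array. Without the spot, over 13 arrays, they were Myoz1 (r = 0.907), a gene of the sarcomere's Z-disc in fast fibres, Spopl (r = 0.906) and Tlk2 (r = 0.897).

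Foxo1, detected on all 14 arrays, varied widely within groups, and its genotype groups overlapped. Its level was 4.00, 1.77 and 2.10 in the EDL of WT and 3.78, 2.0 and 2.33 in the EDL of Ts1Cje mice. In the soleus it was 3.37, 1.82, 2.25 and 2.11 in WT and 2.20, 3.30, 1.97 and 2.19 in Ts1Cje. Each group thus held 1 high array, and the remaining arrays of both genotypes lay in the same range. The genotype difference was 0.08 ± 0.62 in the EDL (95% interval -1.25 to 1.41) and 0.03 ± 0.53 in the soleus (95% interval -1.13 to 1.18, adjusted p = 0.985). These intervals leave room for changes of over 2-fold either way. The single Foxo3 probe was well above background on 3 of 14 arrays, 2 of soleus WT and 1 of soleus Ts1Cje, with levels of -5.03 to -2.69, and was not tested. With the dim probes kept, its differences were 0.75 ± 0.51 in the EDL and -0.26 ± 0.44 in the soleus (adjusted p = 0.999 and 0.827).

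No ligase gene differed between genotypes by more than its spread within groups. Fbxo32, which encodes the F-box protein atrogin-1, was at 3.47, 3.04 and 2.47 in EDL WT and 3.93, 2.08 and 3.00 in EDL Ts1Cje. In the soleus it was at 2.61, 2.81, 2.25 and 2.52 in WT and 2.64, 1.86, 2.63 and 2.86 in Ts1Cje. The Ts1Cje arrays enclosed the WT arrays in both muscles. Its differences were 0.01 ± 0.40 in the EDL (95% interval -0.85 to 0.88) and -0.05 ± 0.35 in the soleus (95% interval -0.80 to 0.70, adjusted p = 0.962). Trim63, the gene of the sarcomere-bound ligase MuRF1, was at 6.18, 5.12 and 5.45 in EDL WT and 6.52, 5.01 and 5.5 in EDL Ts1Cje. In the soleus it was at 5.57, 4.40, 5.04 and 4.55 in WT and 4.56, 5.65, 4.51 and 5.05 in Ts1Cje. As for Foxo1, each group had 1 array above the rest. The differences of Trim63 were 0.09 ± 0.43 in the EDL (95% interval -0.84 to 1.03) and 0.05 ± 0.37 in the soleus (95% interval -0.76 to 0.86, adjusted p = 0.962).

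Fbxo30, the gene of MUSA1, lay near the 75th percentile on every array, between -0.83 and 0.53. Its differences were 0.10 ± 0.25 in the EDL and 0.23 ± 0.21 in the soleus (95% interval -0.23 to 0.70, adjusted p = 0.616). A second Fbxo30 probe, whose target spans 3704 bases of the genome, did not follow the first one, with a correlation of their deviations of 0.03 over 14 arrays. The probe pairs of Foxo1 and Trim63 followed each other at 0.964 and 0.969, and the 3 probes of Bnip3 at 0.810 to 0.939. The Mt1 probes followed each other at 0.754.

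The lysosomal and mitophagy genes were measured most tightly, so their genotype intervals were narrow. Ctsl was at 5.23, 5.15 and 4.93 in EDL WT and 5.30, 5.09 and 4.82 in EDL Ts1Cje, and at 4.93, 4.84, 4.77 and 5.04 in soleus WT and 4.83, 4.98, 4.59 and 4.83 in soleus Ts1Cje. The groups overlapped, with differences of -0.04 ± 0.14 in the EDL (95% interval -0.34 to 0.27) and -0.09 ± 0.12 in the soleus (95% interval -0.36 to 0.18). The Bnip3 genotype differences were -0.12 ± 0.13 in the EDL (95% interval -0.41 to 0.16) and 0.09 ± 0.11 in the soleus (95% interval -0.16 to 0.33) (adjusted p = 0.756 for Ctsl and 0.747 for Bnip3 in the soleus).

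The metallothionein genes spread more within groups than all but a few genes of the array. Mt1 was at 6.27, 3.89 and 3.69 in EDL WT, 6.92, 3.8 and 4.05 in EDL Ts1Cje, 6.97, 5.02, 4.59 and 5.04 in soleus WT and 4.76, 7.58, 4.86 and 5.12 in soleus Ts1Cje. Mt2 was at 5.03, 2.05 and 2.16 in EDL WT, 5.84, 2.35 and 3.46 in EDL Ts1Cje, 5.15, 3.27, 2.62 and 3.04 in soleus WT and 2.52, 5.94, 3.00 and 2.85 in soleus Ts1Cje. In both genes 1 array of each group was high and the genotypes overlapped. The genotype differences of Mt1 were 0.31 ± 1.0 in the EDL and 0.17 ± 0.86 in the soleus, and those of Mt2 were 0.81 ± 1.11 and 0.06 ± 0.96 (adjusted p = 0.941 and 0.984 in the soleus). A second, dimmer Mt1 probe, well above background on 10 of 14 arrays, was at -2.47, -2.24 and -3.23 in EDL WT and -0.25, -2.65 and -2.71 in EDL Ts1Cje. In the soleus it was at -1.75, -2.06, -1.94 and -1.07 in WT and -2.85, 0.30, -1.87 and -2.06 in Ts1Cje. It was highest on the same array as the brighter probe in both Ts1Cje groups and on another array in both WT groups. The 60-base probes of Mt1 and Mt2 share no run longer than 7 bases.

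**Figure D2:**
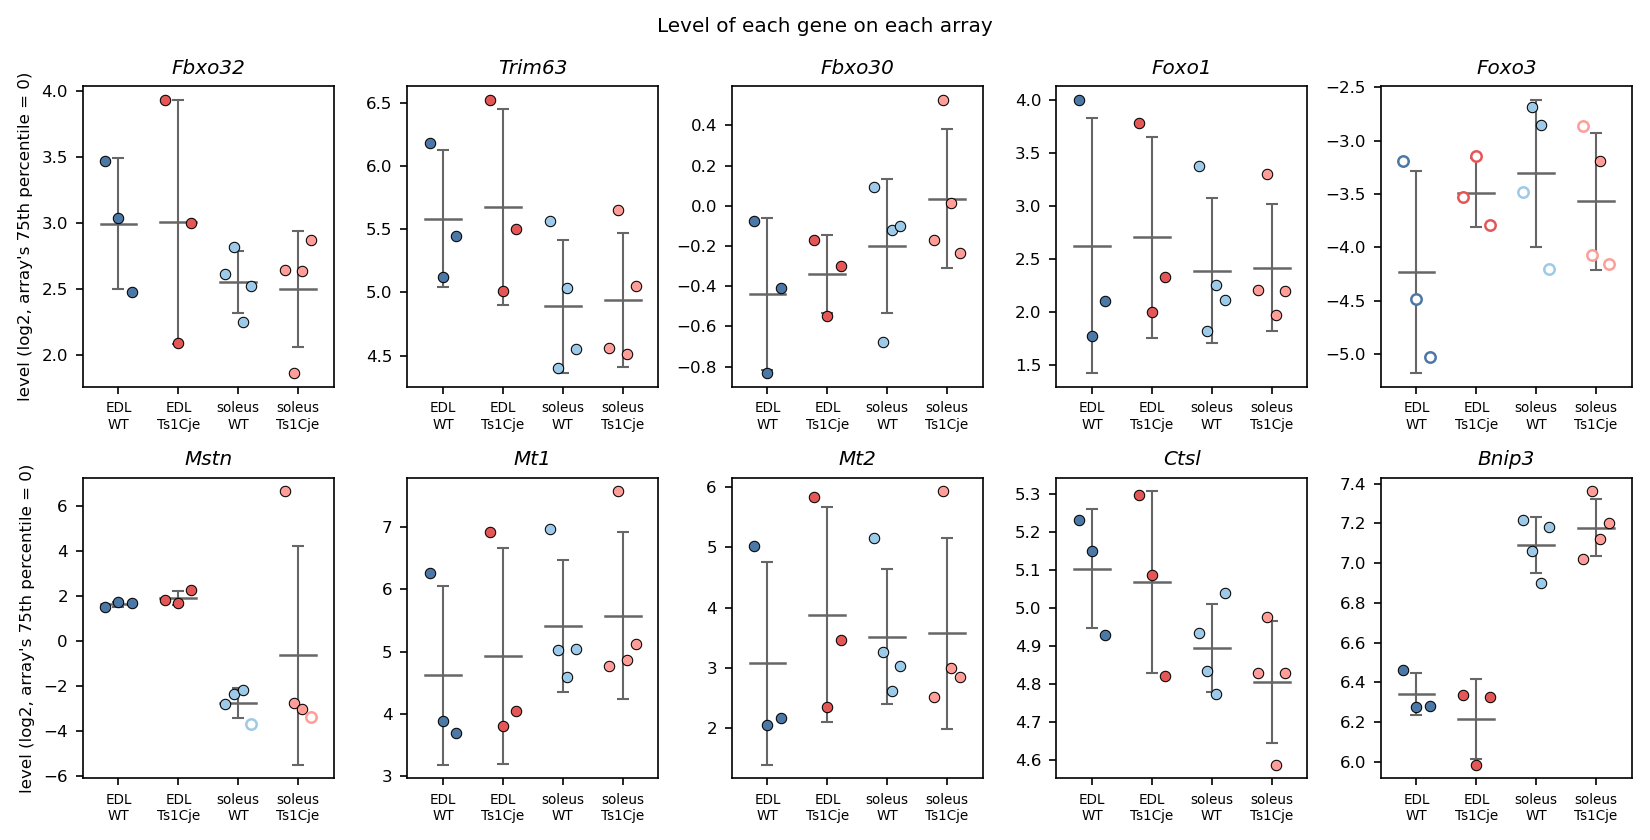
Level of each of the 10 genes (log2 of intensity relative to the array's 75th percentile) on each of the 14 arrays, by muscle and genotype. Each point is an array, with 3 EDL and 4 soleus arrays per genotype. Grey bars are group means with SD, and open points are values not well above background. The Bnip3 points of the EDL lie at or below 6.46 and those of the soleus at or above 6.90, and 1 array of each group stands high in Foxo1, Trim63, Mt1 and Mt2.

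The genotype effect on these genes was also not shown to differ between muscles. The difference of effects, EDL minus soleus, ran from -1.86 ± 2.58 for Mstn to 0.75 ± 1.46 for Mt2, with adjusted p from 0.988 to 0.997. Without the flagged soleus spot the value of Mstn was 0.58 ± 0.45. Of 13 fast fibre genes 3 were called lower and 0 higher in Ts1Cje soleus. Of 12 slow fibre genes tested 0 were called, and of all genes 0.247% were called in either direction. Among the fast fibre genes called, Myh4, the gene of fast myosin heavy chain IIB, differed by -4.12 ± 0.53 (limma, adjusted p = 0.00644). The Myh4 call was lost with the soleus groups fitted alone (-4.12, adjusted p = 0.0733) and within slide 2 (-4.26, adjusted p = 0.155). The part of fibre type in the soleus values of the 9 genes was not tested. Runx1, a transcription factor on chromosome 16 that is induced when muscle is denervated, rose in Ts1Cje soleus by 1.06 ± 0.17 (2.08-fold, adjusted p = 0.0219), a call that was lost with the replicate block (adjusted p = 0.165) and without any one of 6 of the 8 soleus arrays (adjusted p = 0.0578 to 0.0875). With the normexp correction its difference was 0.26 (adjusted p = 0.451), and with the mean of its kept probes 0.67 (adjusted p = 0.309). Runx1 was the single gene called for genotype in either muscle among 14 tested genes of the denervation and disuse response. The parts of gene dosage and of denervation in its rise were not tested.

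The second question was how the muscles differ in these genes. Bnip3 was lower in the EDL than in the soleus in both genotypes, and it was the single one of the 9 tested genes called in either comparison. In WT it was at 6.46, 6.28 and 6.28 in the EDL and 7.22, 7.06, 6.90 and 7.18 in the soleus. In Ts1Cje it was at 6.34, 5.99 and 6.33 in the EDL and 7.02, 7.36, 7.12 and 7.20 in the soleus. Every EDL array lay below every soleus array. The difference was -0.75 ± 0.12 in WT (1.68-fold lower, 95% interval -1.02 to -0.48, adjusted p = 0.000716) and -0.96 ± 0.12 in Ts1Cje (1.95-fold lower, 95% interval -1.23 to -0.69, adjusted p = 0.000107). In RNA of whole muscle, fewer cells of a type and less RNA per cell cannot be told apart.

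The count of 1 called gene of 9 in each genotype stood against 29.8% of all genes in WT and 29.9% in Ts1Cje called in either direction, and against 9.76% and 12.4% called lower and 20% and 17.5% called higher. All genes whose EDL arrays lay below every soleus array made up 13% in WT and 14.9% in Ts1Cje. The median of the 9 genes was 0.21 in WT, against 0.07 over all genes, and 0.29 in Ts1Cje, against 0.01. All 3 Bnip3 probes, which lie on the minus strand of chromosome 7 between 146082536 and 146082819 (mm9, per the file), were called lower. Their differences were -0.79, -0.75 and -0.61 in WT and -1.09, -0.96 and -0.80 in Ts1Cje, with adjusted p of at most 0.0361 and 0.0098. With the slide as a block, which rests on 1 soleus array of slide 1, the difference was -0.54 ± 0.22 in WT (adjusted p = 0.138) and -0.80 ± 0.18 in Ts1Cje (adjusted p = 0.0138). Within slide 1 it was -0.80 ± 0.20 in Ts1Cje (adjusted p = 0.0657).

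Mstn was higher in the EDL than in the soleus on every array but the one with the flagged spot. The WT groups were separate, with 1.5 to 1.71 in the EDL against -3.72 to -2.19 in the soleus, while 25.8% of all genes had WT groups separate in this direction and 38.9% in either, and 35.3% had separate Ts1Cje groups. The fitted WT difference of 4.41 ± 1.82 (21.2-fold) had an adjusted p of 0.0872, and the Ts1Cje difference of 2.55 ± 1.82 one of 0.313, with the high soleus array in the shared error. Without that spot, chosen as an alternative after its value was seen, the difference was 4.41 ± 0.31 in WT (21.2-fold, 95% interval 13.4 to 33.6, adjusted p = 2.4e-06). In Ts1Cje it was then 4.98 ± 0.33 (31.6-fold, 95% interval 19.3 to 51.7, adjusted p = 1.12e-06). Mstn was not well above background on replicate 4 of either soleus group, so the low end of the soleus values is set near the detection limit. Its probe passed the filter only through the EDL groups, where Mstn is high. These p-values are therefore not independent of the filter and describe the values only. With only probes well above background on all arrays, Mstn was not tested. A slide block reverses the Mstn difference, to -5.33 in WT and -4.75 in Ts1Cje, since the only soleus array on slide 1 is the one with that spot.

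The other 7 tested members did not pass the adjusted threshold between muscles. Trim63 differed by 0.69 ± 0.40 in WT (95% interval -0.18 to 1.57, adjusted p = 0.218) and 0.73 ± 0.40 in Ts1Cje (adjusted p = 0.189). Fbxo32 differed by 0.44 ± 0.37 (adjusted p = 0.399) and 0.50 ± 0.37 (adjusted p = 0.33). Fbxo30 lay on the other side, at -0.24 ± 0.23 (adjusted p = 0.465) and -0.37 ± 0.23 (adjusted p = 0.24). This side was not held by its second probe, which differed by 0.06 in WT and -0.02 in Ts1Cje. The Foxo1 differences were 0.24 ± 0.58 and 0.29 ± 0.58, those of Mt1 -0.79 ± 0.93 and -0.66 ± 0.93, and those of Mt2 -0.44 ± 1.03 and 0.31 ± 1.03, in WT and Ts1Cje. Ctsl differed by 0.21 ± 0.13 (adjusted p = 0.263) and 0.26 ± 0.13 (adjusted p = 0.155). With arrays scaled to their median, which moved the median WT difference of all genes from 0.07 to 0.34, the WT difference of Ctsl was 0.47 (adjusted p = 0.0198).

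**Figure D3:**
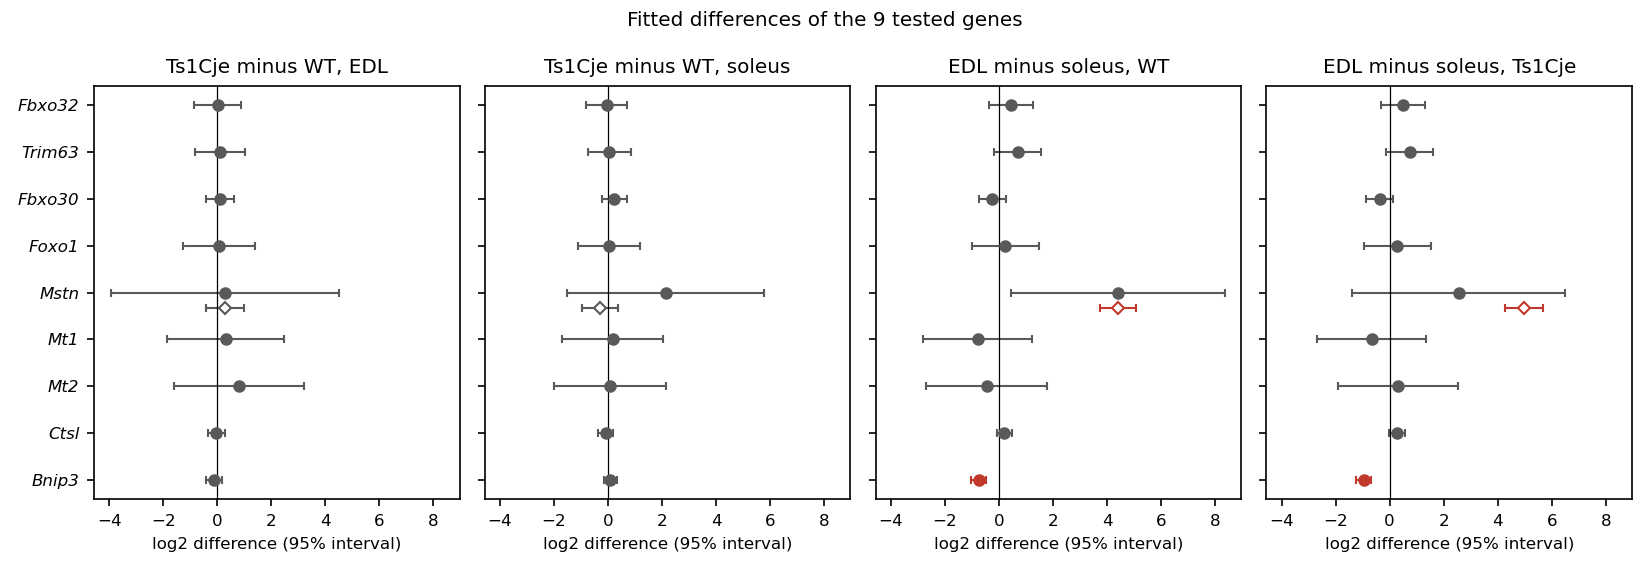
Fitted log2 differences of the 9 tested genes with their 95% intervals, for genotype (Ts1Cje minus WT) in each muscle and for muscle (EDL minus soleus) in each genotype. The Bnip3 intervals of both muscle comparisons lie below 0, at -1.02 to -0.48 and -1.23 to -0.69, and the genotype interval of every gene includes 0.

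Several of these genes differed widely among arrays of the same group. The spread within groups was largest for Mstn, whose residual SD of 2.70 was the highest of all 14170 genes and rests on the flagged spot. Mt2 followed with 1.53 (rank 22), Mt1 with 1.38 (rank 30), Foxo1 with 0.85 (rank 225), Trim63 with 0.59 (rank 808) and Fbxo32 with 0.54 (rank 1019), against a median of 0.23 over all genes. Ctsl and Bnip3 had residual SDs of 0.17 and 0.15.

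In Foxo1, Trim63, Mt1 and Mt2 the high array of each group was the same one: replicate 1 of EDL WT, of EDL Ts1Cje and of soleus WT, and replicate 2 of soleus Ts1Cje. By the position numbers in the scan names, EDL WT replicate 1 and soleus WT replicate 1 held the same position on their slides. EDL Ts1Cje replicate 1 and soleus Ts1Cje replicate 2 likewise shared the next position. The part of array position in the high values was not tested. On these 4 arrays Mt2 stood 1.95, 1.96, 1.63 and 2.36 above its group's mean. Mt1 stood 1.65, 2.0, 1.57 and 2.0 above, Foxo1 1.38, 1.08, 0.99 and 0.89, and Trim63 0.60, 0.85, 0.68 and 0.71. Within a group the highest array exceeded the lowest by 5.79- to 11.2-fold in Mt2, 5.22- to 8.74-fold in Mt1, 2.53- to 4.69-fold in Foxo1 and 2.09- to 2.86-fold in Trim63. Fbxo30 and Bnip3 were also highest on that array in 4 of 4 groups, by 1.3- to 1.71-fold and 1.14- to 1.28-fold over the lowest. In the order above, Fbxo30 exceeded the next array by 1.257-, 1.096-, 1.146- and 1.426-fold. Bnip3 exceeded it by only 1.131-, 1.009-, 1.025- and 1.116-fold. On the second Fbxo30 probe, soleus Ts1Cje replicate 2 was the lowest of its group (-1.22, against -0.79, -0.97 and -0.99). In the other groups that probe was highest on the same array as the first. Fbxo32 was highest on that array in the EDL groups and on other arrays in both soleus groups. Mstn was highest on it in 0 of 4 groups. The arrays were picked by the levels of these members. The share of all genes highest on the same arrays was not counted, so a shift common to many genes was not tested.

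**Figure D4:**
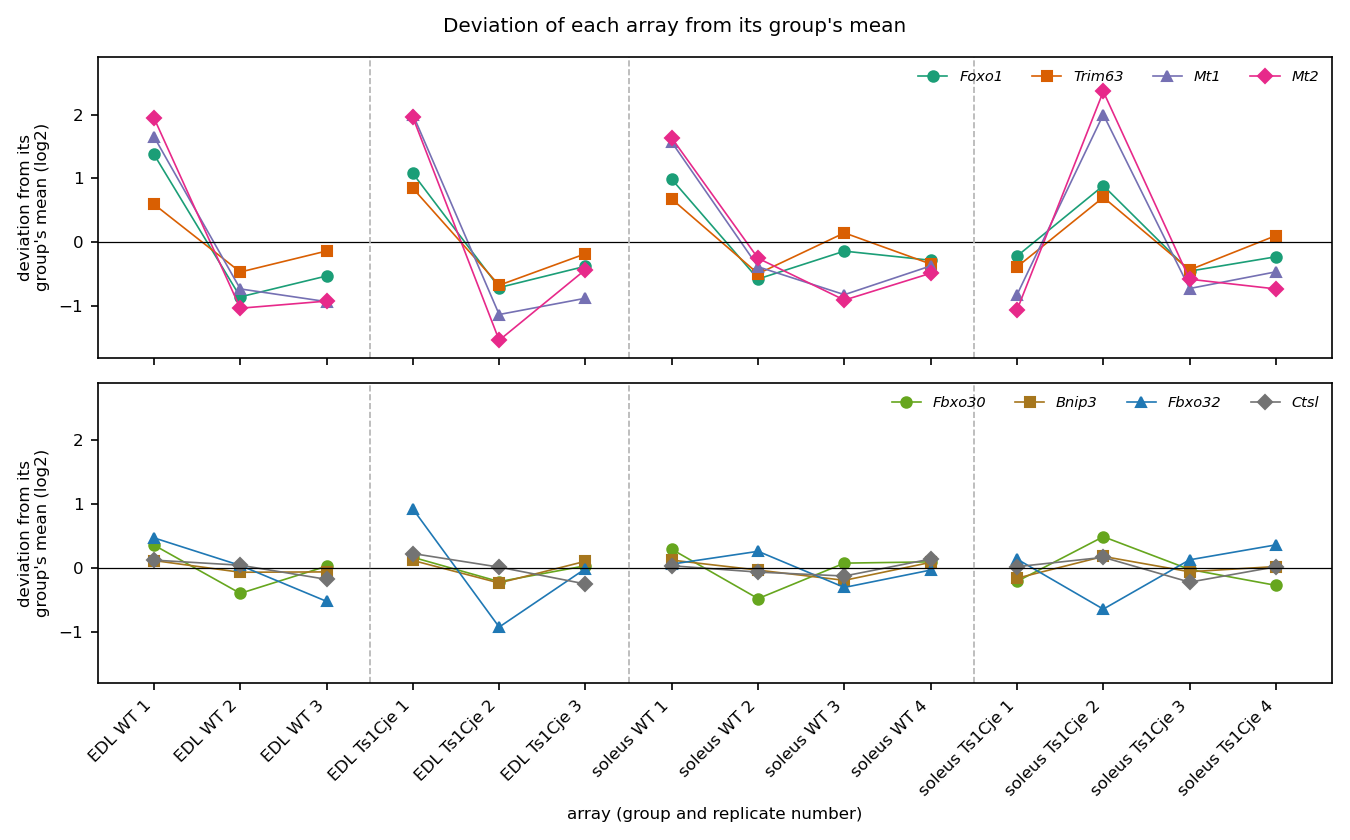
Deviation of each array from its group's mean (log2) for 8 of the tested genes (Mstn is not drawn), with the 14 arrays along the horizontal axis by group and replicate number. Replicate 1 of EDL WT, EDL Ts1Cje and soleus WT and replicate 2 of soleus Ts1Cje stand high together in Foxo1, Trim63, Mt1 and Mt2, up to 2.36 in Mt2.

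Over all 14 arrays, the correlation of deviations passed the adjusted threshold in 12 of 36 pairs by Pearson and in 6 by both Pearson and Spearman (permutation within groups, Benjamini-Hochberg). All 6 pairs among Foxo1, Trim63, Mt1 and Mt2 were among the 12 (adjusted permutation p of at most 0.0181 by Pearson and 0.11 by Spearman). Because 4 arrays stand apart from the other 10, these values rest largely on them and their r is not read as a relation. Over the other 10 arrays, centred again within groups, Foxo1 and Trim63 gave r = 0.826 (rho = 0.891, exact permutation p = 0.0417 and 0.0347, Benjamini-Hochberg adjusted over 36 pairs 0.5 and 0.438). Mt1 and Mt2 gave r = 0.669 (rho = 0.697, exact permutation p = 0.139, adjusted p = 0.656). Foxo1 gave r = -0.255 with Mt1 (rho = -0.321, exact permutation p = 0.597) and r = 0.0295 with Mt2 (rho = -0.0667, exact permutation p = 0.965). Bnip3 gave r = 0.831 with Mt1 (rho = 0.842, exact permutation p = 0.0139, adjusted p = 0.5) and r = 0.862 with Mt2 (rho = 0.903, exact permutation p = 0.104, adjusted p = 0.656). None of the 36 pairs passed the adjusted threshold over these 10 arrays, where a pair that alone had the smallest possible p of 0.00694 would have an adjusted p of 0.25, so the test could hardly call any.

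Of the lists of other genes named for the same pathways, some were high on the same 4 arrays and others were not. The share of all genes high on these arrays was not counted. The mean of 15 glucocorticoid response genes stood 0.61, 0.57, 0.37 and 0.63 above its group's mean there and between -0.53 and 0.02 on the other 10. Among them Fkbp5, a glucocorticoid-induced co-chaperone gene, stood 1.26, 1.4, 1.01 and 1.33 above, and Zbtb16, another induced gene, 1.16, 1.23, 1.1 and 1.05. The mean of 29 FoxO regulators and targets stood 0.25, 0.26, 0.15 and 0.13 above, against -0.17 to 0.08 on the other arrays. In that list Pdk4, which restrains glucose oxidation, stood 2.76, 2.03, 1.53 and 1.12 above, and the transcription factor gene Klf15 stood 0.97, 0.67, 0.74 and 0.71 above. The mean of 29 autophagy genes stood 0.10, 0.06, 0.09 and 0.16 above, against -0.08 to 0.00 on the other arrays. The 31 proteasome subunit genes showed no such step, at 0.00, 0.06, -0.03 and 0.04 against -0.08 to 0.10. Genes of fibroblasts and tendon stood at -0.66, -0.03, -0.71 and -0.16 on the same arrays, against -0.35 to 0.45, and those of Schwann cells at -0.38, -0.18, -0.36 and -0.06, against -0.26 to 0.53. Adipocyte genes, at -0.83, -0.70, -1.09 and -0.04 against -0.93 to 1.75, and immediate early genes, at 0.36, -0.10, 0.08 and 0.39 against -0.62 to 0.72, lay mostly within the range of the other arrays. Over all 14 arrays 5 of the 23 list means followed Foxo1 past the adjusted threshold by Pearson and 0 by both measures, with the same 4 arrays in that count. The mean of the myostatin, activin and BMP list ran the other way (r = -0.656, with 13 of 36 genes above 0). That of the lysosomal list did not follow Foxo1 (r = -0.026, 11 of 24 genes above 0). In the FoxO list 20 of 29 genes had r above 0. Over the other 10 arrays the test could hardly call any list (a lone list at the smallest p would have an adjusted p of 0.16), and the glucocorticoid list gave r = -0.558 with Foxo1 (rho = -0.527, exact permutation p = 0.132, adjusted p = 0.735). The part of these cell types, of tissue handling or of array position in the high arrays was not tested.

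The genes that followed each member most closely over the 14 arrays are given by the correlation of deviations, as a description that the same 4 arrays largely set. For Foxo1 they were Cblb (r = 0.974), a ubiquitin ligase gene that limits IGF1 signalling, Fnip1 (r = 0.973), whose protein binds folliculin, and Mafg (r = 0.969). For Trim63 they were Jaml (r = 0.968), Ppara (r = 0.957), a nuclear receptor gene of fatty acid oxidation, and Smcr8 (r = 0.944). For Mt1 they were Pip5k1a (r = 0.993), Mt2 (r = 0.985) and Anapc16 (r = 0.975), and for Mt2 they were Mt1, Pip5k1a (r = 0.980) and Anapc16 (r = 0.971). Fbxo32 was followed less closely, by 5430401F13Rik (r = 0.897), Spata5 (r = 0.854) and Cacfd1 (r = 0.839). The nearest gene was Gtpbp4 for Fbxo30 (r = 0.958), Wdr92 for Ctsl (r = 0.945) and B4galt4 for Bnip3 (r = 0.938).

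The promoters of the genes that were high together are shown because FoxO factors and the metal sensor MTF1 act through short DNA motifs there. Each line holds the 250 bases before the gene's start in RefSeq on GRCm38.p6, read 5′ to 3′ on the gene's strand, and that start need not be the one used in muscle. Capitals mark a FoxO core (GTAAACA on either strand) in Trim63 and metal response cores (TGCGCNC or TGCACNC on either strand) in Mt1 and Mt2. The window of Trim63 is chr4:134314870-134315119, that of Foxo1 chr3:52268087-52268336, that of Mt1 chr8:94178839-94179088 and that of Mt2 chr8:94172368-94172617, all on the plus strand.
Trim63: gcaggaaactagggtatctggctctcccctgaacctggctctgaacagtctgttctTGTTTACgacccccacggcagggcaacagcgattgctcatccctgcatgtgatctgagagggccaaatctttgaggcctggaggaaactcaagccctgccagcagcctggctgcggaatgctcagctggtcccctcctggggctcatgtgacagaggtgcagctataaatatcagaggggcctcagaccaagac
Foxo1: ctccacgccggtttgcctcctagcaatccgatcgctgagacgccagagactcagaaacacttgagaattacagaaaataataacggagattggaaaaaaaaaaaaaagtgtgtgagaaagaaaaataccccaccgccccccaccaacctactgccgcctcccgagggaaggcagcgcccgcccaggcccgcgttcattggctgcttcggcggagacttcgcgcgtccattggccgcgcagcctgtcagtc
Mt1: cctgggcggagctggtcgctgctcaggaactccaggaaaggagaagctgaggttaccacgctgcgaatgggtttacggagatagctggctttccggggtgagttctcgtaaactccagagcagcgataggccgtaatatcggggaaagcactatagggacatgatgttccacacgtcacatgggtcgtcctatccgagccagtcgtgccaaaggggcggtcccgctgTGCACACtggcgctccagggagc
Mt2: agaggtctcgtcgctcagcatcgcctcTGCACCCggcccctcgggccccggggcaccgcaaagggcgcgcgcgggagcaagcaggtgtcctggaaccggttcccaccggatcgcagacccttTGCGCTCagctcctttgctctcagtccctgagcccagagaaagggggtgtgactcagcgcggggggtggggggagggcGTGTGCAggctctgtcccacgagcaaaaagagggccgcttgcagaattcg
The window of Trim63 holds 1 FoxO core 194 bases before the start, on the minus strand, and a TATA box (TATAAA) 31 bases before it. A FoxO core is present in 3.17% of the 32851 promoters of that length in the reference. The window of Foxo1 holds neither a FoxO core nor the insulin response core CAAAACA, which 5.56% of promoters hold. The window of Mt1 holds 1 metal response core, 23 bases before the start, and that of Mt2 holds 3, at 223, 128 and 50 bases. Neither of these windows holds a TATA box. Bases after the annotated start were not searched, so these counts are of the window and not of the whole promoter. At least 1 metal response core is present in 21.4% of promoters and at least 3 in 1.26%. A match describes these letters only, and no binding was measured here. Of the 10 genes, 9 were matched in the promoter table, and Fbxo32 was not listed.

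The rest of the pathway was described from lists of other genes. For genotype, 0 genes of the lists of ubiquitin ligases, proteasome, autophagy, lysosome, FoxO, IGF1, myostatin pathway, metallothionein and glucocorticoid genes were called in either muscle by limma. Of the 233 different genes in these lists, 2 in the EDL (0.858%) and 26 in the soleus (11.2%) had an unadjusted p under 0.05, against 2.88% and 13.6% of all genes tested. The muscle comparisons below are EDL minus soleus, with WT first and Ts1Cje second. They carry the slide along with the muscle, and the effects of these cannot be told apart except through 1 array.

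Of 36 other genes of the myostatin, activin and BMP pathway, 5 were higher and 3 lower in the EDL in WT, and 6 and 6 in Ts1Cje, with medians of -0.04 and -0.11. Acvr1b, the activin type I receptor gene ALK4 through which myostatin signals, was higher by 2.06 ± 0.19 (adjusted p = 1.17e-05) and 2.18 ± 0.19 (adjusted p = 5.77e-06). Acvr2b, the type II receptor gene that binds myostatin, was higher by 0.95 ± 0.18 (adjusted p = 0.00192) and 0.91 (adjusted p = 0.00253). The ligand gene Tgfb1 was lower, with differences of -0.85 and -0.89. Acvr1c (ALK7), a receptor gene of fat tissue, was called lower in Ts1Cje, with a difference of -2.75 ± 0.57 (adjusted p = 0.00322). Adipocyte genes moved with it: all 6 tested of 8 listed were called lower in the EDL in Ts1Cje and 2 of 6 in WT, with a summed level of 6.15 to 6.91 on the EDL arrays against 6.70 to 7.85 on the soleus arrays. The part of fat cells in these differences was not tested.

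Of 29 regulators and targets of FoxO, 8 were higher and 2 lower in WT, and 5 and 3 in Ts1Cje. Akt2, the kinase gene that holds FoxO out of the nucleus, was higher in WT by 0.65 ± 0.11 (adjusted p = 0.000614), and Foxo4 was higher in Ts1Cje by 1.26 ± 0.29 (adjusted p = 0.00557). Lpl, a lipoprotein lipase gene and FoxO target, was lower, with differences of -1.73 and -1.89. The median of the list was 0.08 and 0.00, and quantile normalization turned its sign in both genotypes. Of 21 genes listed for IGF1, PI3K and mTOR signalling, Pdk1 among them, 7 were higher and 2 lower in WT and 5 and 2 in Ts1Cje. Deptor, an inhibitor of mTOR, was higher by 1.85 ± 0.22 (adjusted p = 6.29e-05) and 2.02 ± 0.22 (adjusted p = 2.9e-05), and Pdk1 was lower, with differences of -1.01 and -1.47; it encodes a pyruvate dehydrogenase kinase and not a kinase of that signalling pathway. Among 15 glucocorticoid response genes 3 and 2 were higher and 0 lower. They included Tsc22d3 (GILZ), higher by 1.41 ± 0.28 in WT (adjusted p = 0.00225) and 1.41 in Ts1Cje (adjusted p = 0.00218), and Glul, the glutamine synthetase gene, higher by 1.97 and 1.86. Without EDL WT replicate 1, or without soleus WT replicate 4, the WT count was 1.

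Of 30 other ubiquitin ligases and deubiquitinases of muscle, 19 were higher and 1 lower in the EDL in WT, and 14 and 2 in Ts1Cje, with medians of 0.46 and 0.38. Rnf123 (KPC1) was higher by 0.94 ± 0.13 (adjusted p = 0.000158) and 1.07 ± 0.13 (adjusted p = 5.54e-05). Trim54 (MuRF3), the close relative of Trim63, was higher by 0.79 ± 0.14 (adjusted p = 0.00124) and 0.99 (adjusted p = 0.000234). Usp19, a deubiquitinase gene linked to muscle wasting, was higher by 0.61 and 0.74. Ube2d1, an E2 enzyme gene, was higher in WT by 1.35 ± 0.24, and Wwp1, an E3 ligase gene, in Ts1Cje by 1.62 ± 0.25. The Ts1Cje count of 14 was 8 without EDL Ts1Cje replicate 1 and 9 without soleus Ts1Cje replicate 3. With the slide as a block, 4 were higher in WT and 9 in Ts1Cje.

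Of 31 proteasome subunit genes, 23 in WT and 17 in Ts1Cje were higher in the EDL and 0 were lower, with medians of 0.43 and 0.36. Psmd6 was higher by 0.69 ± 0.09 (adjusted p = 0.00012) and 0.49 (adjusted p = 0.00137), and Psmc3 and Psmc2, ATPase subunit genes of the proteasome's cap, were higher by 0.63 and 0.53 in WT and by 0.54 and 0.38 in Ts1Cje. These counts depend on the processing: with the slide as a block they were 2 and 2, with the normexp background correction 8 and 3, and within slide 1 the Ts1Cje count was 0. Without EDL Ts1Cje replicate 1 the Ts1Cje count was 10. The median stayed above 0 in each of these.

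Of 29 autophagy and mitophagy genes, 10 were higher and 0 lower in the EDL in WT, and 8 and 2 in Ts1Cje. Bnip3l (NIX), the nearest relative of Bnip3, was higher in the EDL in WT by 0.52 ± 0.09 (adjusted p = 0.000739), the direction opposite to that of Bnip3. The probes of Bnip3 and Bnip3l share no run longer than 7 bases. Atg12, part of the conjugation system that extends the autophagosome, was higher by 0.70 and 0.77, and Sqstm1 (p62), a cargo receptor gene, was higher in Ts1Cje by 1.07 ± 0.21 (adjusted p = 0.00208). Gabarap, a gene of the LC3 family, was lower in Ts1Cje, with a difference of -0.50. With the slide as a block 2 and 4 were higher and 0 lower.

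Of 24 lysosomal genes, 10 were higher and 2 lower in WT, and 10 and 4 in Ts1Cje, where the relatives of Ctsl differed among themselves. Gaa, the acid alpha-glucosidase gene, was higher by 1.38 and 1.36, Cst3, an inhibitor of cathepsins, by 0.96 and 0.88, and Ctsc (cathepsin C) by 1.28 and 1.15. Lgmn (legumain) was lower in Ts1Cje, with a difference of -0.67. Of 18 genes of metallothioneins, metal transport and their regulators, 3 were higher in each genotype, and 0 were lower in WT and 1 in Ts1Cje. The iron and metal transporter gene Slc11a2 was higher by 1.07 and 0.92, and Keap1, the repressor gene of the oxidative stress factor NRF2, by 0.69 and 0.63. Of 14 other genes of the hypoxia response, in which Bnip3 is known to be induced, 2 were higher and 3 lower in each genotype. Of 14 genes of the denervation and disuse response, 1 was higher and 6 lower in WT, and 2 and 6 in Ts1Cje.

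**Figure D5:**
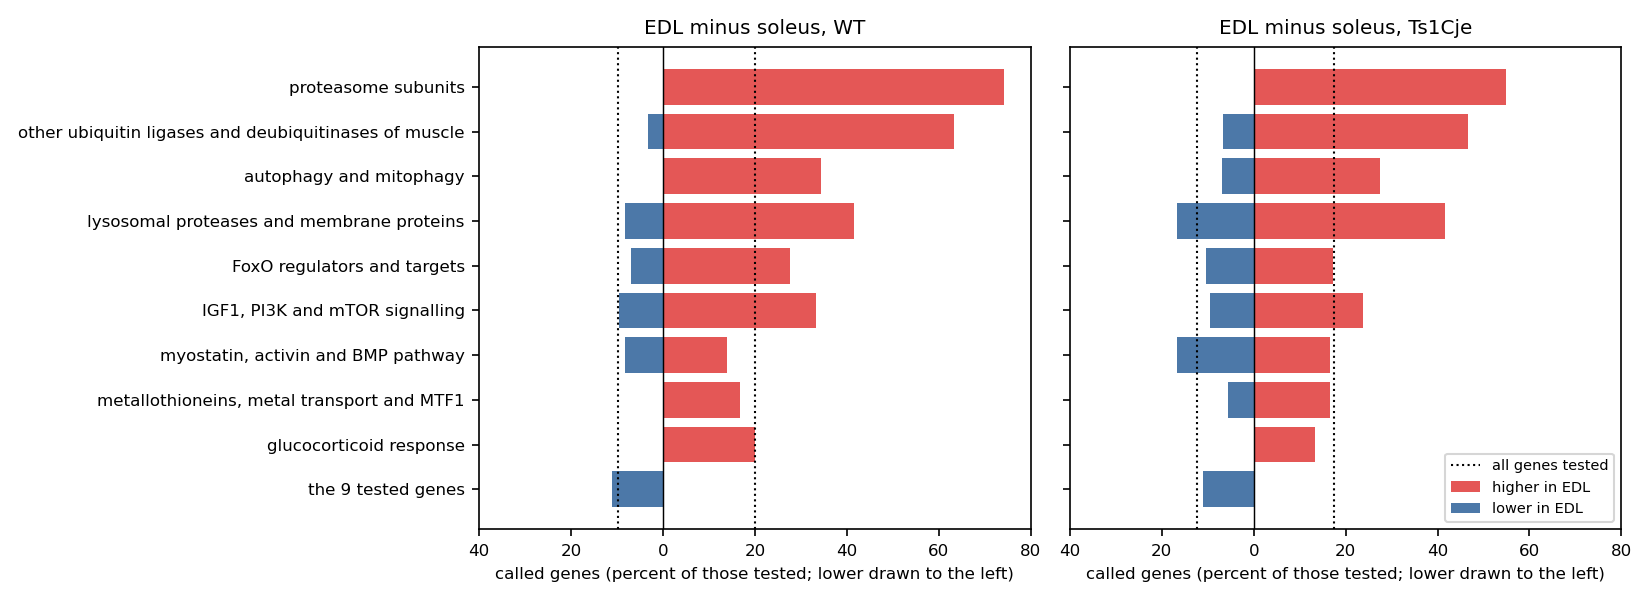
Share of the tested genes of each list called higher (right) or lower (left) in the EDL than in the soleus, in percent, for WT and for Ts1Cje, with dotted lines at the shares of all genes tested. The row of the 9 tested members shows 1 gene called lower in each genotype, and the proteasome row shows 23 of 31 called higher in WT and 17 of 31 in Ts1Cje.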

How the data were processed

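Total RNA of 14 muscle samples was measured with the dye Cy3 on 1-colour Agilent arrays, per the labels' protocols. The authors deposited scanner output, whose gProcessedSignal is a background-subtracted intensity, per the file headers written by Feature Extraction 11.5.1.1; the submitters' processing notes name version 9.1. The authors' deposited table of log2 values, normalised by them, matched the same values rebuilt from the scanner files (correlation over 0.99 on every array) and served as an alternative.

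Here log2 intensity was taken relative to the 75th percentile of each array, spots of a probe were averaged, and 25190 probes that stood well above background throughout a group were kept. Each gene took the values of its brightest kept probe, giving 14170 genes, with 31796 of 33822 named probes matched to RefSeq by Entrez ID. One mean per group was fitted over all 14 arrays with limma 3.58.1 in R 4.3.3 (10 residual and 2.80 prior degrees of freedom), and p-values were Benjamini-Hochberg adjusted over all genes at a threshold of 0.05. Deviations from group means were correlated between genes over all 14 arrays as planned (100000 permutations within groups) and, added after 4 arrays were seen to stand apart, over the other 10 with an exact permutation within groups (144 orderings, smallest p 0.00694). The script was tested on simulated data. The normexp alternative (offset 50) used median spot signals, since the mean signal is not a column of these files.

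Precision is limited by how many arrays there are, and sequencing depth does not apply. Values of an array are relative, so a shift of all genes together is not seen. The members and the gene lists were chosen with earlier results of these data known, and correlations over 10 arrays, array positions and the list deviations were chosen after seeing the data. Up to 4 called genes per list and comparison, those of lowest p, and the 3 nearest genes per member were eligible to be named; Runx1, Myh4, Fkbp5, Zbtb16, Klf15 and Pdk4 were named beside a member's result after their values were seen. The series' design describes littermate pairs. In the EDL the deviations of same-numbered WT and Ts1Cje arrays correlated at 0.401, 0.116 and 0.314. These arrays also held neighbouring positions on the slide, and differently numbered arrays were not compared. Whether the replicate numbers pair the samples was thus not tested. Promoter sequences are from RefSeq.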

Additional observations from a re-analysis of the deposited data

Results flagged for a closer look

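In groups of 4 arrays, an array far from the others was sought for each member, a search that by chance marks about 1 in 20 groups. It marked 3 values, all in soleus Ts1Cje. Mstn was at 6.66 on replicate 1, while the other 3 arrays lay between -3.41 and -2.76. Mt1 was at 7.58 and Mt2 at 5.94 on replicate 2, while the other 3 arrays lay between 4.76 and 5.12 and between 2.52 and 3.00. The Mstn spot had a flagged local background, and no Mt1 or Mt2 spot had one.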

How the results depend on the processing

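The genotype comparisons called 0 of the tested members under every alternative run (scaling, background correction, filters, probe choice, weights, slide, replicate block and each array left out). With only probes well above background on all arrays 8 members were tested, without Mstn. The count called between muscles was 1 in the main setting. In WT it was 2 with array weights, with the WT groups fitted alone and without spots of flagged background, and 3 (Bnip3, Ctsl and Mstn) with median scaling. In Ts1Cje it was 2 (Bnip3 and Mstn) with the slide as a block, where Mstn was lower in the EDL (-4.75). It was also 2 without spots of flagged background, where Mstn was higher in the EDL (4.98). Leaving out each array in turn it ranged from 1 to 2 in both genotypes, with 2 without soleus Ts1Cje replicate 1, where Mstn was called in WT (4.41, adjusted p = 2.77e-06) and Ts1Cje (4.98, adjusted p = 1.81e-06). Mstn had passed the filter only through the EDL groups. In WT with the slide as a block, and in Ts1Cje within slide 1, the called gene was Mstn, lower in the EDL, and not Bnip3. Bnip3 kept its direction between muscles under every alternative.

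The replicate number as a block left 0 members called in each genotype comparison and 1 in each muscle comparison and changed no other call of a member. In the soleus same-numbered arrays correlated at -0.12, -0.29, 0.01 and -0.13, which gives no sign that the numbers pair the soleus samples.

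Over 1461 alternative values 1319 kept direction and call, and 132 changed sign, 92 of them on leaving out an array. Of these 132, 83 were under 0.1 in size in the main setting and 30 at least 0.25. The 30 are 13 of Mstn, 16 of Mt1 and Mt2 and 1 of Foxo1. Those of Mstn arose where the flagged spot or its array was left out, or where slides were fitted or taken alone. The cause of the others was not tested. Values that changed sign follow. With median scaling they were, for the mean genotype effect, Bnip3 0.036 and Fbxo32 0.037, for the difference of genotype effects, Ctsl -0.14, Fbxo32 -0.13, Foxo1 -0.14, Mt1 -0.062 and Trim63 -0.15, for genotype in the soleus, Ctsl 0.063 and Fbxo32 0.10, for muscle in WT, Fbxo30 0.028, for genotype in the EDL, Fbxo32 -0.030. With the slide as a block they were, for the mean genotype effect, Bnip3 0.0068 and Mstn -0.012, for muscle in WT, Fbxo30 0.037, Mstn -5.33, Mt1 0.30 and Mt2 0.97, for the difference of genotype effects, Foxo1 -0.020, Mstn 0.58, Mt1 -0.14 and Trim63 -0.086, for genotype in the soleus, Mstn -0.30, for muscle in Ts1Cje, Mstn -4.75 and Mt1 0.16. With array weights they were, for genotype in the EDL, Ctsl 0.030, for genotype in the soleus, Fbxo32 0.027, for the mean genotype effect, Fbxo32 0.080. With the mean of the kept probes they were, for genotype in the soleus, Foxo1 -0.022 and Trim63 -0.0063. With the normexp correction they were, for genotype in the soleus, Foxo1 -0.0025, for the difference of genotype effects, Trim63 -0.018. With quantile normalization they were, for genotype in the soleus, Foxo1 -0.035, Mt2 -0.0072 and Trim63 -0.024. Without spots of flagged background they were, for the difference of genotype effects, Mstn 0.58, for genotype in the soleus, Mstn -0.30, for the mean genotype effect, Mstn -0.012. On slide 2 alone they were, for genotype in the soleus, Mstn -0.30. On slide 1 alone they were, for muscle in Ts1Cje, Mstn -4.75 and Mt1 0.16. Leaving out each array in turn, these ranges include values of changed sign or call. For the mean genotype effect the range was -0.051 to 0.038 for Bnip3, -0.25 to 0.21 for Fbxo32, -0.22 to 0.40 for Foxo1, -0.012 to 1.67 for Mstn, -0.26 to 0.65 for Mt1, -0.058 to 0.92 for Mt2 and -0.14 to 0.24 for Trim63. For the difference of genotype effects the range was -0.060 to 0.18 for Ctsl, -0.33 to 0.045 for Fbxo30, -0.40 to 0.52 for Fbxo32, -0.49 to 0.74 for Foxo1, -2.78 to 0.58 for Mstn, -0.87 to 0.96 for Mt1, -0.23 to 1.72 for Mt2 and -0.38 to 0.38 for Trim63. For genotype in the EDL the range was -0.15 to 0.088 for Ctsl, -0.098 to 0.28 for Fbxo30, -0.45 to 0.47 for Fbxo32, -0.46 to 0.77 for Foxo1, -0.69 to 1.13 for Mt1, -0.17 to 1.78 for Mt2 and -0.33 to 0.43 for Trim63. For genotype in the soleus the range was -0.17 to 0.16 for Fbxo32, -0.27 to 0.36 for Foxo1, -0.30 to 3.06 for Mstn, -0.49 to 0.70 for Mt1, -0.73 to 0.60 for Mt2 and -0.18 to 0.28 for Trim63. For muscle in Ts1Cje the range was -0.25 to 0.64 for Foxo1, -1.66 to 0.010 for Mt1 and -0.67 to 1.1 for Mt2. For muscle in WT the range was -0.45 to 0.66 for Foxo1 and -1.41 to 0.10 for Mt2.

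Over all genes, genotype calls in the soleus numbered 35, against 15 with the normexp correction, 6 with no filter on dim probes, 23 with the mean of the kept probes, 18 with the slide as a block, 1 within slide 2, 4 with groups fitted alone and 7 with the replicate block, and 10 to 38 leaving out each array. Calls for the mean genotype effect numbered 41, against 22 with the normexp correction, 21 with no filter, 5 with the replicate block and 25 to 41 leaving out each array, and EDL calls numbered 0 to 3. The calls between muscles in WT and Ts1Cje numbered 4223 and 4243, against 1368 and 2070 with the slide as a block and 2281 and 2939 with the normexp correction. The called genes higher in the EDL were 67.2% in WT and 58.5% in Ts1Cje, 89.3% and 69.5% with median scaling and 57.6% and 50.1% with quantile normalization. Signals near background limit Foxo3 and the soleus values of Mstn. With 3 or 4 arrays per group, the members with wide spread, Foxo1, Mt1 and Mt2, have genotype intervals of over 2-fold either way.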
